A study of Homo sapiens with 9 samples.

Results

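The genes described here make and modify fatty acids: SREBF1, which encodes the transcription factor SREBP-1, and the enzyme genes ACLY, ACACA, FASN, SCD, ELOVL5, ELOVL6, FADS1 and FADS2. They were listed by name as a pathway, and were found by Ensembl identifier in a table of 22290 genes. Of the 9 listed genes, 8 had a row, and the expression of FADS1 was not analysed here. RNA was sequenced from 9 libraries of cells labelled IMR-32, a human neuroblastoma line, to ask how the transcriptome differs with the amount of the mitochondrial chaperone TRAP-1. There were 3 libraries of parental cells (genotype WT in the labels), 3 of cells with the genotype TRAP-1 knockdown (KD) and 3 of cells with the genotype TRAP-1 overexpression (OE), all grown in the same medium with serum. The KD and OE cells came from earlier work, and how they were made, and whether each is 1 clone, is not given in the sources used here. Nothing states that the 3 libraries of a group came from separate cultures, so p-values measure only the spread between these libraries, which may be technical. The values are regularized log2 values (rlog), which are adjusted for library size and pulled toward the mean of each gene, so that a difference of rlog values is smaller than an unshrunken log2 fold change by an amount the table does not give. A read coverage is stated in the methods, but the number of reads counted in each library is not in the table.

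New fatty acids are built from acetyl-CoA in the cytosol. ACLY splits citrate exported from mitochondria into acetyl-CoA, ACACA carboxylates it to malonyl-CoA, and FASN joins these units into palmitate. SCD then places a double bond in saturated chains, ELOVL6 lengthens palmitate to stearate, and ELOVL5, FADS1 and FADS2 elongate and desaturate polyunsaturated chains from the diet. SREBP-1 is made as a membrane protein of the endoplasmic reticulum and is cut free to enter the nucleus, where it is known to activate most of these genes together with NF-Y and Sp1. Dividing tumour cells use the pathway to supply membrane lipids.

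TRAP1 itself was examined first. Its rlog value was 10.67, 10.66 and 10.65 in the parental libraries, 10.79, 10.785 and 10.83 in the libraries labelled KD, and 10.67, 10.63 and 10.74 in the libraries labelled OE. The 3 libraries labelled KD lay above all parental libraries, and those labelled OE overlapped them. Against parental the difference was 0.14 in the libraries labelled KD (adjusted p = 1.8e-05, limma) and 0.018 in those labelled OE (adjusted p = 0.643, limma). The latter was 0.064 with the medians of 20-Mb chromosome windows removed (adjusted p = 0.0339, limma) and -0.012 without OE replicate 3. TRAP1 RNA therefore went against the KD label and was not called higher under the OE label, and every direction given here for KD or OE refers to libraries labelled so.

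The markers of the labelled cell type were uneven, and the identity of the cells was not tested here. The methods state that the IMR-32 line was authenticated. Of 20 listed neuroblastoma markers 13 had a row, of which GATA2, ISL1, TFAP2B and ALK had a mean rlog of at least 8 and 6 (PHOX2A, TH, CHGA, MYCN and SLC18A2 among them) were under 5. MYCN, the oncogene amplified in IMR-32, lay between 2.465 and 2.61 in the 9 libraries, and 18.9% of all genes were at or below its mean, as 20.4% were for TH, the first enzyme of catecholamine synthesis. HAND1, DBH, DDC, STMN2, ELAVL4 and SLC6A2 were among those not analysed here. The summed level of the list, taken back from the log2 scale, was 14949, 14971 and 15143 in the parental libraries, 18618, 18499 and 18607 in those labelled KD, and 17237, 17634 and 17601 in those labelled OE, and its most abundant gene was TFAP2B. The rlog value of TFAP2B was 13.66, 13.66 and 13.68 in parental, 14.025, 14.02 and 14.02 under the KD label and 13.91, 13.94 and 13.94 under the OE label. The sum does not stand for the list, since of its 13 genes 4 were higher and 6 lower under the KD label (26.9% and 26.9% of all genes; median difference -0.089) and 1 was higher and 3 lower under the OE label (16.9% and 18% of all genes; median -0.057).

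Markers of other cells also differed between the groups. The most abundant genes of the Schwann and glial list (6 of 9 with a row), the fibroblast list (14 of 15) and the epithelial list (15 of 20) were ERBB3, PRRX1 and KRT18, while EPCAM, COL1A1 and MBP were under 5 and SOX10, CDH1 and KRT19 were not analysed here. The summed glial markers were 20608, 20420 and 20173 in parental, 24071, 24338 and 23842 under the KD label and 22740, 22889 and 23009 under the OE label. The fibroblast sum was 12372, 12608 and 12831, then 16943, 16926 and 16866, then 13887, 14144 and 14204 in the same order. The epithelial sum was 6954, 6964 and 6899, then 7153, 7342 and 7398, then 6292, 6245 and 6284. Of the adipocyte list 3 of 8 genes had a row, with PPARG the most abundant and PLIN1 under 5, and the sum was 3658, 3591 and 3529, then 2428, 2386 and 2400, then 3368, 3478 and 3468. The hepatocyte list (3 of 8, led by SERPINA1, with TTR and HNF4A under 5) summed to 675, 688 and 642, then 528, 528 and 553, then 446, 505 and 488. The immune list (5 of 8) reached a mean rlog of only 5.82 with LYZ, had PTPRC and CD14 under 5, and summed to 161, 164 and 163, then 148, 150 and 149, then 148, 155 and 157. Each of these sums follows its most abundant genes and does not stand for its list. Of the fibroblast list 3 genes were higher and 3 lower under the KD label, with COL6A3 and COL5A1 low in all KD-labelled libraries while PRRX1 was high, and of the epithelial list 2 were higher and 3 lower, of the glial list 1 and 2, of the adipocyte list 1 and 1, of the hepatocyte list 0 and 1 and of the immune list 1 and 3 (26.9% and 26.9% of all genes). Under the OE label the numbers higher and lower were 4 and 3, 1 and 4, 4 and 0, 1 and 1, 0 and 1 and 0 and 2 in the same order (16.9% and 18% of all genes). All of the sums but the immune one separate the 3 groups without overlap, and their part in the differences of the lipogenic genes was not tested.

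Promoter sequences were searched because SREBP, NF-Y and Sp1 are known to act close to the start of these genes and because 6 of the 8 genes with a row were higher under the KD label. RefSeq (GRCh38.p14) windows from 250 bases before to 50 bases after a transcription start were found for 8 of the 9 genes, 12 windows in all, and none for FASN. These 8 include FADS1, so they are not the same 8 as the genes with expression values. The 4 motifs searched on both strands were TCACNCCAC (a sterol regulatory element core), CACGTG (an E-box), CCAAT (the NF-Y box) and GGGCGG (the GC box bound by Sp1). Windows are shown for SREBF1, which had the largest difference under the KD label, for SCD, which had the largest under the OE label, for ACLY, which was higher under both, and for ELOVL5, which was lower under the KD label. Capitals mark the matches, read 5′ to 3′ on the strand of the gene. The SREBF1 window is chr17:17836937-17837236 (minus strand), that of ACLY, 1 of 2, is chr17:41918973-41919272 (minus strand), that of SCD is chr10:100346983-100347282 (plus strand) and that of ELOVL5 is chr6:53348901-53349200 (minus strand).
SREBF1: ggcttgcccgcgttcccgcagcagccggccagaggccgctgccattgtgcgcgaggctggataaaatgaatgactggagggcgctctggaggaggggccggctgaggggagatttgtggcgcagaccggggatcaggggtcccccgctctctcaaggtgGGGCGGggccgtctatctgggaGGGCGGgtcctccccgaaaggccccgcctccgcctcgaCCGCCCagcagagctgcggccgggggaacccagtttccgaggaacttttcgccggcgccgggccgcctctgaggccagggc
ACLY: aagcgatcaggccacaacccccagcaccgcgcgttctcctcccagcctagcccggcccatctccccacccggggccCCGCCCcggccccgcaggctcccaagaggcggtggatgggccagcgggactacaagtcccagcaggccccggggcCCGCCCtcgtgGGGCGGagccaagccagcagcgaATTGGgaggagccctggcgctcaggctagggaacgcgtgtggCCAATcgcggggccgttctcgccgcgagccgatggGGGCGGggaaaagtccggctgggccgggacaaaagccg
SCD: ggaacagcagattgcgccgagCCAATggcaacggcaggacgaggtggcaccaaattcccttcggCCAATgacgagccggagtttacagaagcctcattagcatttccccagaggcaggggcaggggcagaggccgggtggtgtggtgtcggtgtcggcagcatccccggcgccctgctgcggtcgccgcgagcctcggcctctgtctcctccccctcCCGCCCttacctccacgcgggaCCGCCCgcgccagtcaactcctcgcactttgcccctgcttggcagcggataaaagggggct
ELOVL5: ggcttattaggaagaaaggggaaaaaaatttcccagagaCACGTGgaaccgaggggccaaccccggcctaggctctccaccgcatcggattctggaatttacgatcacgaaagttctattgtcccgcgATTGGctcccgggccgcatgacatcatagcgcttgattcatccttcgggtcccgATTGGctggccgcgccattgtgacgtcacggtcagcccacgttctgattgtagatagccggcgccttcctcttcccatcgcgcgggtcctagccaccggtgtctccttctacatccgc

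The GC box was found in 9 of the 12 windows, against 45% of all 35116 promoter windows, and in at least 1 window of 7 of the 8 genes with a window. The 2 windows of ACLY overlap and hold the same 4 GC boxes and 2 CCAAT boxes, which are thus counted in both, and the 2 windows of FADS2 overlap as well. The GC box occurs 3 times in the SREBF1 window, 4 times in that of ACLY and 2 times in that of SCD, and not in that of ELOVL5. These windows had a GC content of 71%, 73.3%, 66.3% and 57.3% in the same order, beside a median of 58.7% over all windows. The counts of matches were not adjusted for base composition. The CCAAT box was found in 7 of the 12 windows and for 5 of 8 genes, against 34.6% of all windows, with 2 matches each in ACLY, SCD and ELOVL5. The E-box was found only in the ELOVL5 window, first base at -211, against 7.26% of all windows. The sterol element core was in 0 of the 12 windows, against 1.13% of all windows. In the windows of ACACA some GC boxes overlap each other, and no other matches overlap. These letters describe the windows and were not tied to any difference between the libraries.

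**Figure D1:**
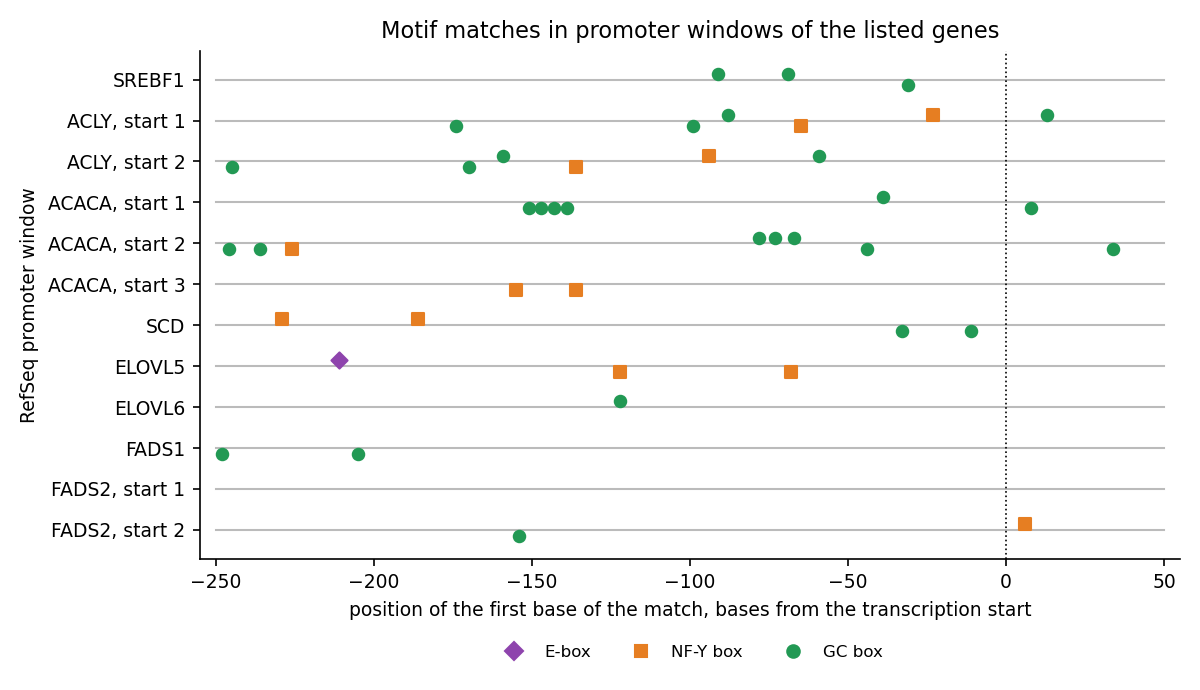
Positions of motif matches in the 12 RefSeq promoter windows of 8 listed genes. The horizontal axis is the distance in bases of the first base of a match from the transcription start (dotted line), symbols above a line are matches on the strand of the gene and symbols below it on the other strand. GC boxes are seen in 9 windows and the CCAAT box in 7, and 1 window of FADS2 has no match.

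SREBF1, the transcription factor of the pathway, had the largest difference of the listed genes under the KD label. Its rlog value was 12.16, 12.16 and 12.19 in the parental libraries, 12.61, 12.645 and 12.67 in the libraries labelled KD, and 12.46, 12.51 and 12.53 in the libraries labelled OE. All parental libraries were low, all KD-labelled libraries high and the OE-labelled ones between them, with no overlap of the 3 groups. The difference from parental was 0.47 under the KD label (SE 0.019, adjusted p = 3.3e-20, limma, n = 3 per group), larger in size than that of 94.4% of all genes, and 0.33 under the OE label (SE 0.019, adjusted p = 1.7e-15, limma). The median size of a KD-label difference was 0.081 over all genes and 0.131 over those at a mean rlog of 8 or more. Between the engineered lines SREBF1 was lower in the libraries labelled OE, with a difference of -0.14 (adjusted p = 1.6e-07, limma). SREBF1 (ENSG00000072310) lies at chr17:17810399-17837002 on the minus strand of GRCh38, and RAI1 covers 6.75% of its exonic sequence. The table has 1 value for the gene, so the SREBP-1a and SREBP-1c transcripts, which start at different exons, cannot be told apart.

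ACLY and ACACA provide the building blocks, and both were higher under both labels. ACLY had rlog values of 13.72, 13.72 and 13.70 in parental, 13.88, 13.91 and 13.88 under the KD label and 13.81, 13.82 and 13.84 under the OE label. The KD-labelled libraries were thus the highest and the parental ones the lowest, again with no overlap. The differences from parental were 0.18 under the KD label (SE 0.013, adjusted p = 2.0e-13, limma) and 0.11 under the OE label (SE 0.013, adjusted p = 3.4e-08, limma). For ACACA, the rate-limiting carboxylase, the order was another one. Its values were 12.19, 12.18 and 12.20 in parental, 12.36, 12.36 and 12.32 under the KD label and 12.42, 12.43 and 12.43 under the OE label. Here the OE-labelled libraries were the highest, and no 2 groups overlapped. The differences from parental were 0.16 (SE 0.017, adjusted p = 1.1e-09, limma) under the KD label and 0.24 (SE 0.017, adjusted p = 5.3e-13, limma) under the OE label. The direct difference of the OE-labelled from the KD-labelled libraries was -0.070 for ACLY (adjusted p = 4.6e-05, limma) and 0.077 for ACACA (adjusted p = 2.9e-04, limma).

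FASN, the multifunctional enzyme that makes palmitate, differed least of the 8 under the OE label. It had rlog values of 13.96, 13.96 and 14.03 in parental, 14.05, 14.08 and 14.11 in the libraries labelled KD, and 13.94, 13.98 and 14.03 in those labelled OE. The KD-labelled libraries lay just above the parental ones, while the OE-labelled libraries overlapped them. The gene also had the widest spread within a group of the 8, 0.095 between the lowest and the highest OE-labelled library. Under the KD label the difference was 0.093 (SE 0.019, adjusted p = 7.7e-05, limma), and in a linear model without moderation of the variance it was no longer called (adjusted p = 0.0625). Under the OE label it was -0.0028 (adjusted p = 0.933, limma), with a 95% confidence interval of -0.041 to 0.035. The 54 neighbouring genes in its 20-Mb window of chromosome 17 had a median difference of -0.066 under the OE label, and with window medians removed the FASN difference was 0.053 (adjusted p = 0.00455, limma). Leaving out 1 library also turned its sign, to 0.021 without parental replicate 3 and 0.020 without OE replicate 1. The difference between the engineered lines was -0.096 (adjusted p = 6.5e-05, limma), or not called without moderation (adjusted p = 0.0638).

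SCD, a stearoyl-CoA desaturase that makes oleate, had the largest difference of the listed genes under the OE label. Its rlog value was 13.77, 13.77 and 13.78 in parental, 13.86, 13.87 and 13.85 in the libraries labelled KD, and 14.13, 14.14 and 14.11 in those labelled OE. The parental libraries were low, the KD-labelled ones slightly higher and the OE-labelled ones clearly highest, with a spread of at most 0.028 within a group. The difference was 0.36 under the OE label (SE 0.012, adjusted p = 7.1e-21, limma), larger in size than that of 97.6% of all genes, and 0.091 under the KD label (SE 0.012, adjusted p = 1.3e-07, limma). The median size of an OE-label difference was 0.048 over all genes and 0.073 over those at a mean rlog of 8 or more. Between the engineered lines the SCD difference was 0.26 (adjusted p = 3.3e-18, limma). Within each library, a comparison chosen after the values were seen, SCD minus FASN was -0.193, -0.194 and -0.254 in parental, -0.184, -0.203 and -0.257 under the KD label and 0.192, 0.162 and 0.080 under the OE label. SCD was thus below FASN in rlog in every parental and KD-labelled library and above it in every OE-labelled one, as a difference of values not divided by gene length. The annotation holds 1 pseudogene of SCD, and how reads that match both were counted is not given in the sources used here.

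ELOVL5, which lengthens polyunsaturated chains, had rlog values of 12.23, 12.225 and 12.24 in parental, 12.05, 11.99 and 12.02 under the KD label and 12.26, 12.28 and 12.27 under the OE label. The KD-labelled libraries were low and the OE-labelled ones slightly above parental, without overlap. The difference was -0.21 under the KD label (SE 0.018, adjusted p = 5.0e-12, limma), the only decrease called among the 8 genes, and 0.040 under the OE label (adjusted p = 0.0823, limma), which was not called but was with window medians removed (0.065, adjusted p = 0.00313, limma) and among genes at a mean rlog of 5 or more (adjusted p = 0.0462, limma). ELOVL6, which makes stearate from palmitate, had 11.33, 11.33 and 11.35 in parental, 11.30, 11.26 and 11.31 under the KD label and 11.41, 11.40 and 11.40 under the OE label. Its groups did not overlap either, but they lay close together. The difference was -0.046 under the KD label (adjusted p = 0.0576, limma) and 0.068 under the OE label (adjusted p = 0.00836, limma). Both depended on the chromosome neighbourhood, since 40 neighbours had medians of 0.093 and 0.050. With these medians removed the KD-label difference was -0.12 and called (adjusted p = 1.5e-05, limma) and that under the OE label 0.034 and not called (adjusted p = 0.205, limma). The KD-label difference of ELOVL6 was also called without KD replicate 3 (-0.056, adjusted p = 0.0397, limma), without moderation of the variance (adjusted p = 0.0306) and among genes at a mean rlog of 5 or more (adjusted p = 0.031, limma). Between the engineered lines both elongases were higher in the libraries labelled OE, by 0.25 for ELOVL5 (adjusted p = 1.1e-13, limma) and 0.11 for ELOVL6 (adjusted p = 1.8e-05, limma).

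FADS2, the delta-6 desaturase, was the least abundant of the 8. Its rlog value was 10.002, 10.02 and 9.98 in parental, 10.115, 10.19 and 10.14 in the libraries labelled KD, and 10.05, 10.04 and 10.03 in those labelled OE. The KD-labelled libraries were the highest, and the OE-labelled ones lay narrowly above parental. The difference was 0.15 under the KD label (SE 0.026, adjusted p = 1.5e-05, limma) and 0.040 under the OE label (adjusted p = 0.272, limma), which became 0.082 and was called (adjusted p = 0.013, limma) with window medians removed. Between the engineered lines it was -0.11 (adjusted p = 0.001, limma), or -0.061 with window medians removed. Of the exonic bases of FADS2, 5.11% are shared with FADS1 and FEN1, and without a stated strand reads from the overlapping genes cannot be told apart.

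**Figure D2:**
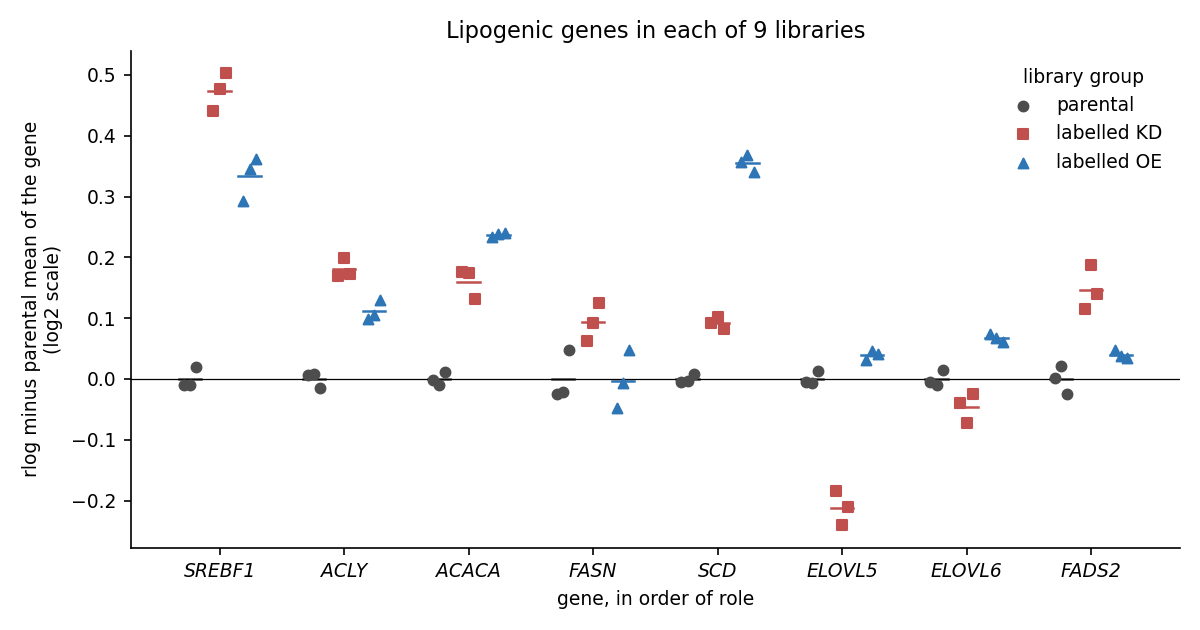
Each symbol is 1 library, plotted as its rlog value minus the mean of the 3 parental libraries for that gene (log2 scale), and short lines are group means. The libraries labelled KD reach 0.47 above parental for SREBF1 on average and lie below parental for ELOVL5, and the libraries labelled OE stand highest for SCD.

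Counted together under the KD label, 6 of the 8 genes were higher (26.9% of all genes), 1 was lower (26.9% of all genes) and ELOVL6 was not called, so 7 of 8 were called where 53.7% of all genes were. The median difference was 0.12, beside -0.00051 over all genes. In 8 of 8 genes the KD-labelled libraries did not overlap the parental ones, an arrangement found in 59.2% of all genes and 78.4% of those at a mean rlog of 8 or more. The mean rlog of all 8 genes was 8 or more, and of the 9956 genes at that level 75.8% were called, 36.4% higher and 39.4% lower, so the share of called genes is near that of abundant genes and nothing particular to the pathway is read from it. With the threshold of the methods, an unadjusted p under 0.05 and a difference over 0.5, 0 of 8 genes passed on the rlog scale, against 4.98% of all genes. By the unadjusted p alone all 8 were under 0.05.

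Under the OE label 5 of the 8 genes were higher (16.9% of all genes), 0 were lower (18% of all genes) and FASN, ELOVL5 and FADS2 were not called by limma, although ELOVL5 was under an unadjusted p of 0.05. Among all genes 34.8% were called, and among the 9956 abundant ones 56.7%, 25.2% higher and 31.5% lower. The median difference of the 8 genes was 0.089, beside 0.00039 over all genes. Groups did not overlap for 7 of 8 genes, against 43.2% of all genes and 63.9% of the abundant ones. At a difference over 0.5, 0 of 8 passed, against 0.897% of all genes. Both comparisons use the same parental libraries, so the 2 sets of differences share their error.

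The direct comparison of the engineered lines, which needs no parental library, divided the genes evenly. SCD, ELOVL5, ELOVL6 and ACACA were higher in the libraries labelled OE, and SREBF1, FADS2, FASN and ACLY were higher in those labelled KD. That is 4 higher (23.5% of all genes) and 4 lower (23.8% of all genes), and all 8 were called, against 47.3% of all genes and 68.3% of the abundant ones. The groups did not overlap for any of the 8, as for 54.1% of all genes and 72.4% of the abundant ones, and 0 of 8 passed a difference of 0.5, against 3.56%. The median difference was 0.0039.

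**Figure D3:**
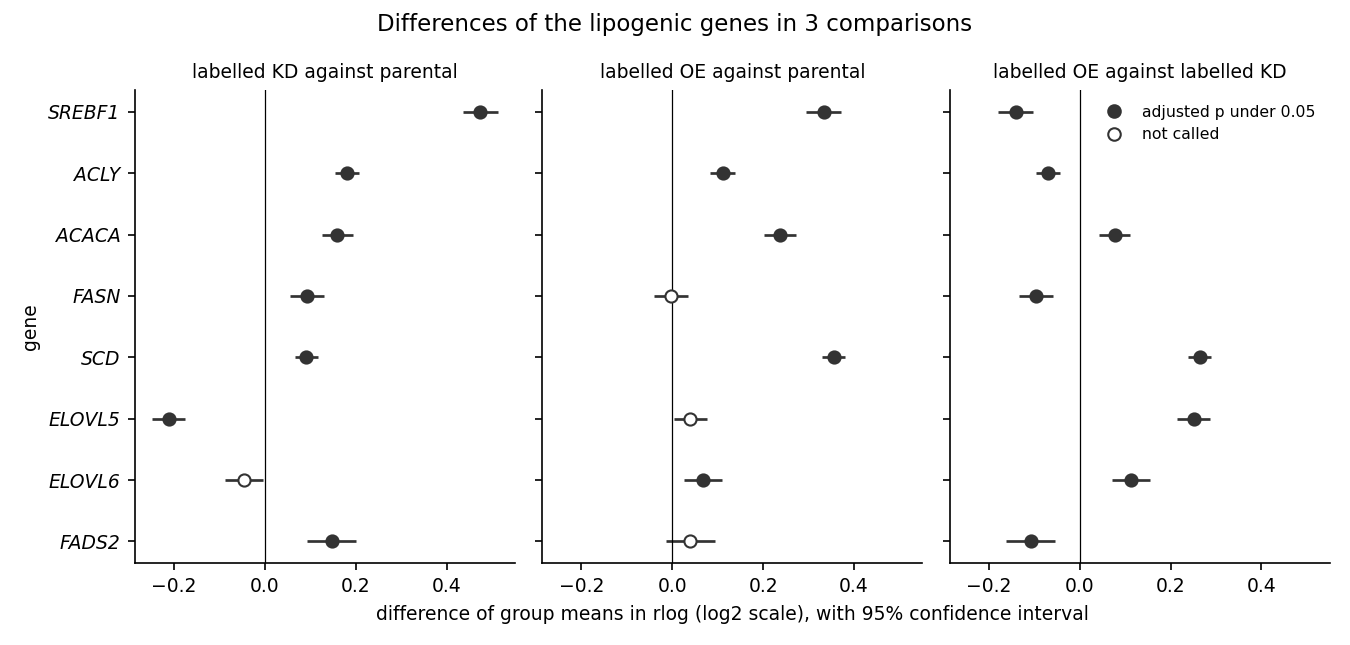
Points are differences of group means in rlog (log2 scale) for 8 genes in 3 comparisons with 3 libraries a group, and lines are 95% confidence intervals from limma. Filled points have an adjusted p under 0.05. SREBF1 is farthest right under the KD label with 0.47, SCD under the OE label with 0.36, and in the direct comparison 4 genes lie on each side of 0.

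Levels can be compared between genes only per length, here as 2 to the power of rlog per kilobase of annotated exon. In the parental libraries SCD was highest with 2666 ± 11.6 (SD, n = 3), then ACLY with 2576 ± 24.2, FASN with 1740 ± 49.8, ELOVL5 with 1261 ± 9.28 and SREBF1 with 558.6 ± 6.54. ACACA with 358.5 ± 2.52 and ELOVL6 with 355.4 ± 3.15 did not differ beyond their spread, and FADS2 was lowest with 97.0 ± 1.55. SCD, ACLY and FASN stood above 98.3%, 98.1% and 97.0% of all genes with a length in the mean of the 9 libraries, and FADS2 above 60.5%. The order was the same in the libraries labelled OE, where SCD reached 3411 ± 33.2 and ACLY 2782 ± 32.0. In the libraries labelled KD the first pair changed places, with ACLY at 2919 ± 34.04 and SCD at 2841 ± 20.6. The levels rest on the length used. Per kilobase of the longest annotated transcript ACLY (3107) was above SCD (2666) in parental as well, ACACA (466.2) was above ELOVL6 (393.5), and SREBF1 (938.6) and FADS2 (201.9) moved most as a ratio, while the order of the other genes stayed.

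**Figure D4:**
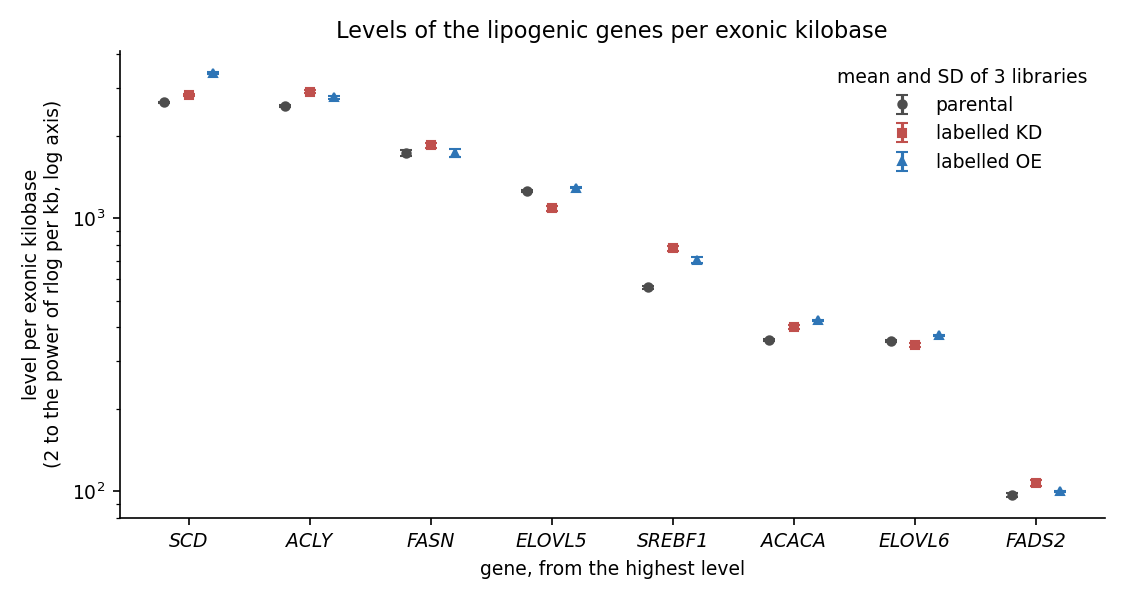
Level per exonic kilobase (2 to the power of rlog per kb, log axis) of 8 genes, as means of 3 libraries with SD, which is mostly smaller than the symbols. SCD, ACLY, FASN and ELOVL5 lie highest, SREBF1, ACACA and ELOVL6 in the middle, and FADS2 lowest with a parental mean of 97.0.

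By position the 8 genes with a row share little beyond the 4 on chromosome 17. FADS1, the other listed gene, shares exonic bases with FADS2 on chromosome 11. SREBF1, ACACA (chr17:37084992-37406836), ACLY (chr17:41866917-41930542) and FASN (chr17:82078338-82098294), all on the minus strand, fall in 4 different 20-Mb windows. The medians of their neighbours at a mean rlog of 8 or more were 0.00098, -0.020, 0.0055 and -0.049 under the KD label. SCD is at chr10:100347233-100364826 (plus strand), ELOVL5 at chr6:53267398-53349179 (minus), ELOVL6 at chr4:110045846-110199199 (minus) and FADS2 at chr11:61792980-61867354 (plus).

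The genes most like SREBF1, FASN and SCD in pattern were sought by the root mean square difference of centred rlog values over 9 libraries. The pool for each was a different part of the abundant genes, not all 9956 of them. For SREBF1 they were TCAF2 (0.021), LINC02251 (0.026) and PBXIP1 (0.029). For FASN they were SSBP4 (0.011), RTL8C (0.017) and TMEM175 (0.017), and for SCD PGK1 (0.020), ZNF160 (0.021) and GSTA4 (0.036). Among the 8 listed genes the nearest pair was ACLY and FADS2 with 0.033, the nearest to SREBF1 was ACLY at 0.13 and the nearest to SCD was ACACA at 0.078. These are each the nearest of 7 genes, while the first set was chosen from 3059, 8989 and 4357 genes for SREBF1, FASN and SCD, so the 2 kinds of distance are not set against each other.

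The regulators of the pathway were then examined from a list of 32 genes, 30 of them with a row. Under the KD label 14 were higher and 12 lower, with a median of 0.029, and under the OE label 11 were higher and 10 lower, with a median of 0.021. In all 86.7% and 70% were called, where 53.7% and 34.8% of all genes and 75.8% and 56.7% of the abundant ones were, and of all genes 26.9% were higher and 26.9% lower under the KD label and 16.9% and 18% under the OE label. SREBF2, which encodes the factor of cholesterol synthesis, was higher under both labels, by 0.36 (adjusted p = 3.9e-17, limma) and 0.20 (adjusted p = 1.7e-10, limma). INSIG1, a target of SREBP that holds its escort SCAP in the endoplasmic reticulum, was higher by 0.32 and 0.29 (adjusted p = 6.4e-14 and 4.6e-12, limma), and its relative INSIG2 by 0.39 and 0.66. SCAP had a difference of -0.32 under the KD label (adjusted p = 2.8e-15, limma), which became -0.011 with window medians removed and was not called, and of -0.028 under the OE label, which was not called. The AMP-activated kinase inhibits acetyl-CoA carboxylase: a gamma subunit gene, PRKAG2, fell, with -0.99 and -0.32, and a catalytic subunit gene, PRKAA2, rose, with 0.19 and 0.36. The other catalytic subunit gene, PRKAA1, was lower under the KD label (-0.051, adjusted p = 0.0159, limma) and not called under the OE label. The nuclear receptor genes of the list were divided: RXRB, NR1H3 and PPARA were called higher under the KD label, as was NR1H2, though not without parental replicate 1, parental replicate 2 or KD replicate 3, while RXRA had -0.87 and -0.17 and PPARG, which is also on the adipocyte list, -0.595 and -0.066. Under the OE label NR1H2 was called lower (-0.10, adjusted p = 0.00119, limma) and NR1H3 higher (0.11, adjusted p = 0.00959, limma). RXRB and PPARA were not called under that label. With window medians removed RXRA had -0.52 and -0.068, the latter not called, and PPARG -0.26 under the KD label. The small OE-label decrease of PPARG was not called without parental replicate 1 (-0.053) or without OE replicate 1 (-0.051). The coactivator gene PPARGC1B was lower under both labels, with -0.52 and -0.27.

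Other enzymes of fatty acid synthesis, 31 of 33 with a row, were divided in direction. Under the KD label 11 were higher and 13 lower with a median of -0.012, and under the OE label 7 were higher and 6 lower with a median of -0.0013, so that 77.4% and 41.9% were called (53.7% and 34.8% of all genes). Genes at a mean rlog of 8 or more had 75.8% and 56.7% called. ACSS2, which makes acetyl-CoA from acetate in the cytosol, had the largest increase under the KD label, 0.73 (adjusted p = 1.2e-24, limma), more than any of the 8 listed genes. Under the OE label its difference was 0.044 (adjusted p = 0.0856, limma), which was called without parental replicate 2 (0.058), with window medians removed (0.16) and among genes at a mean rlog of 5 or more (adjusted p = 0.0454, limma), and the engineered lines differed by -0.68 (adjusted p = 9.9e-24, limma). ACACB, the mitochondrial carboxylase isoform, had 0.025 and 0.028 and was called in neither comparison. HSD17B8, part of mitochondrial fatty acid synthesis, was higher by 0.52 and 0.20, and the elongase gene ELOVL2 by 0.24 and 0.34. ACSL1, which activates long chains to acyl-CoA, had -0.46 and -0.19, and ELOVL4, the elongase of very long chains, -0.43 and -0.16.

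Cholesterol synthesis and uptake, which SREBP-2 is known to control, had 20 of 23 genes with a row. Of these 9 were higher and 6 lower under the KD label, with a median of 0.035, and under the OE label 6 were higher and 2 lower, with a median of 0.027, which makes 75% and 40% called (53.7% and 34.8% of all genes). Among genes at a mean rlog of 8 or more, 75.8% and 56.7% were called. FDFT1, the squalene synthase gene, was higher by 0.34 and 0.20, the latter 0.13 with window medians removed, and DHCR7 by 0.38 and 0.090. SQLE had -0.23 under the KD label and 0.019 with window medians removed.

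Glycerolipid synthesis and lipid droplets, where new fatty acids are stored, had 22 of 23 genes with a row. Under the KD label 5 were higher and 8 lower (median -0.013), and under the OE label 4 were higher and 5 lower (median -0.017), or 59.1% and 40.9% called (53.7% and 34.8% of all genes). The shares were 75.8% and 56.7% among genes at a mean rlog of 8 or more. AGPAT2, an acyltransferase of triglyceride synthesis, had -0.58 and -0.23, and -0.23 and -0.125 with window medians removed. MGLL, the monoglyceride lipase, had -0.27 and -0.32. GPAT3, the first acyltransferase, had 0.22 under the KD label and -0.20 under the OE label, but with window medians removed the first was -0.19 and still called, and the second -0.12. PLIN4, a droplet coat protein, had -0.50 under the KD label and -0.0011 under the OE label, the latter not called. DGAT2, which completes triglycerides, had 0.0045 under the KD label (not called) and -0.23 under the OE label. AGPAT4 had the largest OE-label difference of the list, 0.33 (adjusted p = 5.0e-08, limma), and 0.12 under the KD label, the latter not called without KD replicate 2 (0.11) or with window medians removed (0.078). AGPAT5 had 0.15 under the OE label (adjusted p = 7.3e-07, limma), or 0.073 with window medians removed, and -0.054 under the KD label, which was not called without parental replicate 3 (-0.040), without KD replicate 3 (-0.042), without moderation or without the variance trend. AGPAT1 had 0.26 under the KD label and 0.052 under the OE label (not called).

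Mitochondrial fatty acid oxidation, which uses the chains that synthesis makes, had 18 of 20 genes with a row. Under the KD label 7 were higher and 3 lower (median 0.026), and under the OE label 5 were higher and 0 lower (median 0.045), or 55.6% and 27.8% called (53.7% and 34.8% of all genes). Of the genes at a mean rlog of 8 or more, 75.8% and 56.7% were called. SLC25A20, the acylcarnitine carrier, had -0.40 under the KD label, and -0.098 with window medians removed. CPT2, which reforms acyl-CoA in the matrix, had 0.17, ACADVL, the very long chain dehydrogenase, 0.13, and ETFA, which takes up their electrons, -0.15. Under the OE label none of these 4 was called by limma, with differences from -0.034 to 0.015 and adjusted p from 0.565 to 0.845. Of the 5 genes higher under the OE label, ACADS, the short-chain dehydrogenase, had 0.20 (adjusted p = 4.3e-04, limma; 0.0546 without moderation) and ACAA2, the last thiolase, 0.098 (adjusted p = 0.00948, limma; 0.0637 without moderation). ACAA2 was not called without parental replicate 1 (0.084) or OE replicate 1 (0.064). Of fatty acid uptake and binding genes 14 of 16 had a row, 5 higher and 6 lower under the KD label (median -0.042) and 6 higher and 2 lower under the OE label (median 0.080), or 78.6% and 57.1% called (53.7% and 34.8% of all genes). The transporter SLC27A4 had -0.72 and -0.29, or -0.37 and -0.19 with window medians removed, and MFSD2A, which carries lipids with docosahexaenoate, had -0.62 and -0.25. SLC27A1 had 0.60 and 0.14, the latter not called without parental replicate 2 (0.098) or without moderation. FABP6, by name a member of the fatty acid binding protein family, had the largest increase of this list under the KD label, 0.71 (adjusted p = 2.1e-14, limma), and 0.089 under the OE label (adjusted p = 0.16, limma), the latter called without parental replicate 2 (0.14) or OE replicate 3 (0.13). LPL, which frees fatty acids from lipoproteins, had -0.23 under the KD label and 0.31 under the OE label (adjusted p = 1.6e-08 and 1.6e-10, limma). FABP7, which is also on the glial list, had 0.58 under the OE label (adjusted p = 1.4e-12, limma) and -0.039 under the KD label (not called).

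**Figure D5:**
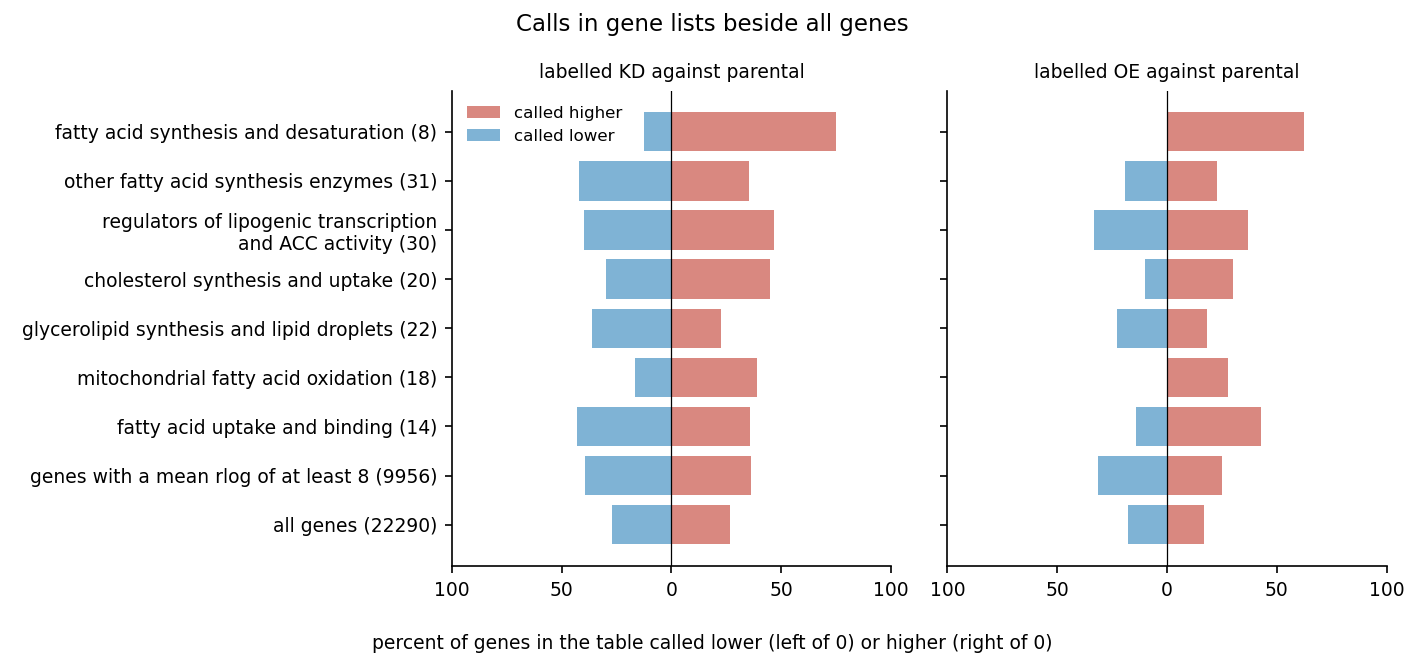
Percent of genes in each list called higher (right) or lower (left) against parental at an adjusted p under 0.05, with the number of genes in the table in parentheses. The 8 listed genes have 75% higher under the KD label and 62.5% under the OE label, beside 26.9% and 16.9% of all genes. Among genes at a mean rlog of 8 or more the shares higher are 36.4% and 25.2%. The other lists of lipid genes have bars on both sides except fatty acid oxidation under the OE label.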

How the data were processed

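Total RNA of 9 libraries (TruSeq RNA Library Prep Kit v2, NovaSeq, paired reads of 150 bases) was processed by the authors: reads were trimmed with cutadapt (quality under 20 or length under 36 bases discarded), mapped to GRCh38 with HISAT2 and counted with featureCounts of Subread, and genes with a total count under 10 were removed. The submitters' processing notes also name DESeq2; versions are not given in the sources used here. The deposited values are rlog values, on a log2 scale, of 22290 genes, of which 22195 were matched to a symbol by Ensembl ID. Raw counts and the reads counted in each library were not analysed here, so a count model could not be used, and 3 columns without values were not used. Group means over all 9 libraries were compared with limma 3.58.1 in R 4.3.3 (two-sided, empirical Bayes, prior variance following mean expression), p-values were adjusted by Benjamini-Hochberg over 22290 genes and an adjusted p under 0.05 was called. The code was checked on simulated data. Exon lengths and positions came from GENCODE 44, and promoters from RefSeq GRCh38.p14. In the window alternative, the median deviation of genes at a mean rlog of 8 or more in each 20-Mb window with at least 10 of them was removed. Other alternatives were no variance trend, a minimum mean rlog of 5, the 2 groups alone, the replicate block, median centring, the difference threshold of 0.5, no moderation, and leaving out each library. Named were the 9 listed genes, TRAP1, SREBF2, SCAP, INSIG1, ACACB and ACSS2, the nuclear receptor genes of the regulator list, from each other list the 2 largest called increases and decreases against parental, of which a selection is printed and marker genes are given as levels only, the 3 genes most alike SREBF1, FASN and SCD, and defining markers. PRKAA1 was named beside PRKAA2, and SCD5 beside SCD. The members and lists were chosen with earlier results of these data known.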

Additional observations from a re-analysis of the deposited data

How the results depend on the processing

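Under 17 alternatives the 8 listed genes kept their direction in all values but those of FASN under the OE label, which was 0.053 with 20-Mb window medians removed and ranged from -0.028 to 0.021 without 1 library. Of 1972 values, 1825 kept direction and call, 112 lost the call (79 of them under the threshold of 0.5), 13 gained it and 22 changed sign. These values cover genes named by rule, not all of them printed. RXRB, NR1H3, NR1H2, PPARA, PRKAA1 and SCD5 were left out of them, as were markers given as levels only. With an unadjusted p under 0.05 and an rlog difference over 0.5, 0 listed genes were called in each comparison, and 1110, 200 and 793 of all genes for KD against parental, OE against parental and OE against KD, where limma without that threshold called 11980, 7764 and 10552. Among genes at a mean rlog of 5 or more 8, 6 and 8 listed genes were called. Without 1 library the called listed genes numbered 7 to 8, 5 and 8 in the same order. Whether replicate numbers pair the libraries is not settled: over 9956 genes the deviations of KD- and OE-labelled libraries with the same number had correlations of 0.22, 0.041 and 0.27, against -0.26 to 0.067 for different numbers, while parental libraries had -0.12 to 0.021 with the same number and -0.097 to 0.15 with another. The replicate block called 12015, 7854 and 10623 of all genes and 7, 5 and 8 of the listed ones. It changed no call among the 116 values tallied for it, which leave out RXRB, NR1H3, NR1H2, PPARA, PRKAA1 and SCD5.

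With window medians removed the sign turned for SQLE (0.019) and GPAT3 (-0.19) under the KD label, PLIN4 (0.052) and ETFA (-0.0041) under the OE label, and SCAP (-0.015) and ACACB (-0.0092) between the engineered lines. Without 1 library the range crossed 0 under the KD label for ACACB (-0.0091 to 0.065), DGAT2 (-0.0063 to 0.017) and FABP7 (-0.064 to 0.010), under the OE label for TRAP1 (-0.012 to 0.042), ACACB (-0.0062 to 0.068), PLIN4 (-0.023 to 0.030), ACADVL (-0.011 to 0.014) and SLC25A20 (-0.032 to 0.0039), and for ACACB between the lines (-0.019 to 0.015). The cause was not tested. Per kilobase of the longest annotated transcript, the parental levels were 938.6 for SREBF1, 3107 for ACLY, 466.2 for ACACA, 1916 for FASN, 1561 for ELOVL5, 393.5 for ELOVL6 and 201.9 for FADS2, because that length is shorter. A read coverage is stated in the methods, but the reads counted in each library are not known, so how far they limit FADS2, the least abundant listed gene, could not be told.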
